A study of Drosophila melanogaster with 3 samples.

Results

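The microRNA genes mir-12, mir-283 and mir-304 of Drosophila melanogaster form a cluster on chromosome X and were followed in the small RNA of adult male heads. They were chosen by symbol, after gene identifiers had been matched to the FlyBase names of the Ensembl annotation, and all 3 are present, among 262 microRNA genes and 3546 noncoding genes in the authors' deposited table. The driver nSyb-GAL4, active in neurons at large, expressed either UAS-SxlRAC, a form of the sex-determination switch protein Sex-lethal, or UAS-mCherry at the attP2 site, a fluorescent protein used as control. The labels give tub-GAL80ts, a temperature-sensitive repressor of GAL4, for the Sxl-RAC cross and do not spell out whether the control carried it. The labels of the Sxl-RAC samples give flies raised at 18 °C and kept at 29 °C for 4 days after eclosion. No control sample record was used here, so the temperatures and age of the control flies were not read from one. Whole heads were used, so that glia, fat body, muscle and other cells contributed RNA beside the neurons, and fewer cells of a type and less RNA per cell cannot be told apart. The labels list 3 Sxl-RAC samples and do not say whether they are separate crosses, so p-values speak only to these libraries, whose spread may be technical.

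MicroRNAs are cut as short duplexes from hairpins in longer transcripts, and the strand that is loaded into Argonaute represses messenger RNAs that pair with its seed. Clustered hairpins such as these are usually transcribed together, but each is processed and turned over separately, so their mature levels can differ. In the fly wing, mir-12 and mir-283 have been reported to repress components of Hedgehog signalling. Protein-coding genes are not part of the deposited table, and neither targets nor the host gene were measured here.

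The 3 hairpins lie on the plus strand within 1591 bases of chromosome X, from 15507956 to 15509546 of build BDGP6.54. All 3 are inside a single intron of Gmap, from 15507594 to 15509717. Gmap encodes a golgin, a coiled-coil protein of the Golgi, and is transcribed from the same strand. The mir-283 hairpin comes first, at 15507956 to 15508055. It is separated by 903 bases from mir-304, at 15508959 to 15509046, and another 426 bases separate mir-304 from mir-12, at 15509473 to 15509546. Each hairpin has a mature product annotated on both arms, 6 in all, of 21 to 23 nucleotides. The deposited table gives 1 value per hairpin gene, so the arms could not be told apart. No other row of the table overlaps the intron, and the nearest other gene, the adenylyl cyclase gene Ac13E on the opposite strand, has its 3′ end 1331 bases beyond mir-12.

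**Figure D1:**
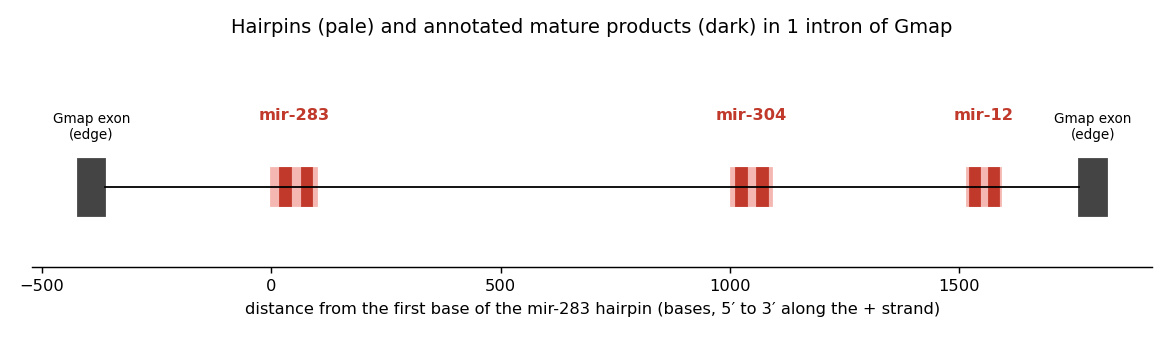
Map of the cluster to scale; the x axis gives the distance in bases from the first base of the mir-283 hairpin, pale boxes are hairpins, dark boxes the 6 annotated mature products, and black boxes the facing edges of the Gmap exons on either side of the intron. The 3 hairpins share an intron of 2124 bases, with 903 bases between mir-283 and mir-304 and 426 bases between mir-304 and mir-12.

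The table has no column per library, but whole reads could be recovered from it for the 3 genes. Each read adds to the base mean an amount set by the size factor of its library, and the rows with a single read give these amounts directly. There were 6 such amounts, and sums of them gave all 35 distinct base means under 0.95 among microRNAs. The fold change of the rows with 1 read was negative for 3 libraries, which are the control arm, and positive for the other 3, the Sxl-RAC arm. Within an arm the libraries are called deepest, middle and shallowest by their size factor, which ran from 0.772 to 1.83. For each of the 3 genes, 1 set of reads per library gave the deposited base mean and, with the dispersion chosen to meet the deposited standard error, the deposited log2 fold change. The recovered libraries have no replicate number. Which of the 3 listed Sxl-RAC samples each Sxl-RAC library belongs to is not known, and the 3 control libraries are known only through the authors' comparison, with no sample record used here.

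In these heads mir-283 had 59 to 166 reads per library and mir-12 had 29 to 87, while mir-304 had 1 to 9. The cluster showed no difference between Sxl-RAC and control heads that exceeded the spread between libraries. In the authors' deposited table the log2 fold changes of Sxl-RAC over control were -0.02 for mir-283, 0.10 for mir-12 and -0.56 for mir-304. None of the 3 was called, where called means an adjusted p under 0.05 in the authors' DESeq2 Wald test, and none had an unadjusted p under 0.05. Over all 67 microRNAs with an adjusted p, 18 were called, or 26.9%, 11 higher and 7 lower. Only mir-283 and mir-12 among the 3 have an adjusted p, and 0 of 2 is too few to set against that share.

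The gene mir-283 had the highest level of the 3. It had 166, 88 and 67 reads in the deepest, middle and shallowest control library, which are 90.8, 94.0 and 86.8 normalised reads. In the Sxl-RAC libraries it had 104, 84 and 59 reads, or 104 (deepest), 86.1 (middle) and 76.0 (shallowest) after normalisation. The control values lay inside the range of the Sxl-RAC values, so the arms overlapped completely. Arm means were 90.5 ± 3.63 normalised reads in control and 88.8 ± 14.3 in Sxl-RAC (SD, n = 3 each; exact two-sided permutation p = 0.8, where 0.1 is the smallest that 3 against 3 libraries can give). This permutation test and all those below compared means of log2 values, while the arm means printed beside them are not on the log2 scale. The authors' deposited table gives mir-283 a log2 fold change of -0.02 ± 0.24 (standard error, DESeq2 adjusted p = 0.92). The 95% interval that this standard error allows ran from -0.48 to 0.44, that is from 0.715-fold to 1.35-fold.

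The gene mir-12 came next in level. It had 87, 43 and 34 reads in the control libraries from deepest to shallowest, or 47.6, 45.9 and 44.0 normalised reads. The Sxl-RAC libraries had 53, 55 and 29 reads, or 53.1, 56.4 and 37.4 normalised reads. The deepest and middle Sxl-RAC libraries were above all control libraries and the shallowest was below them. Arm means were 45.9 ± 1.78 in control and 49.0 ± 10.2 in Sxl-RAC (SD, n = 3 each; exact two-sided permutation p = 0.8 on the log2 scale). The authors' deposited table gives mir-12 a log2 fold change of 0.10 ± 0.32 (standard error, DESeq2 adjusted p = 0.82), and its 95% interval ran from -0.52 to 0.72, or 0.697-fold to 1.64-fold.

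The shallowest Sxl-RAC library was the lowest of the 6 for both genes, and it set the direction for mir-283: without it the log2 ratio of arm means was 0.07, against -0.03 with all 6 libraries. For mir-12 the corresponding ratio was 0.09 and became -0.02 without the middle Sxl-RAC library. The spread between control libraries was smaller than that of counting. Counting alone gives a standard deviation of 9.35 normalised reads for mir-283 and 6.64 for mir-12 in control, against the 3.63 and 1.78 observed. In the Sxl-RAC arm counting gives 9.84 and 7.28, against 14.3 and 10.2. Counting error here assumes that each read is an independent molecule, which PCR can break.

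The gene mir-304 was represented by 19 reads in all. The control libraries held 9, 2 and 2 reads from deepest to shallowest, and the Sxl-RAC libraries 2, 1 and 3. After normalisation the control values were 4.92, 2.14 and 2.59 and the Sxl-RAC values 2.00, 1.02 and 3.87. The arms overlapped, with means of 3.22 ± 1.49 and 2.30 ± 1.44 (SD, n = 3 each; exact two-sided permutation p = 0.4 on the log2 scale). The authors' deposited table gives mir-304 a log2 fold change of -0.56 ± 1.27 (standard error, unadjusted DESeq2 p = 0.658). The 95% interval ran from 0.121-fold to 3.79-fold, which includes both a large fall and a large rise. No adjusted p is given for it: microRNAs have one in the table from a base mean of 26.7 upward, and the highest base mean without one is 22.3. The deepest control library held 9 of the 13 control reads, and without it the log2 ratio of arm means went from -0.49 to -0.04.

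**Figure D2:**
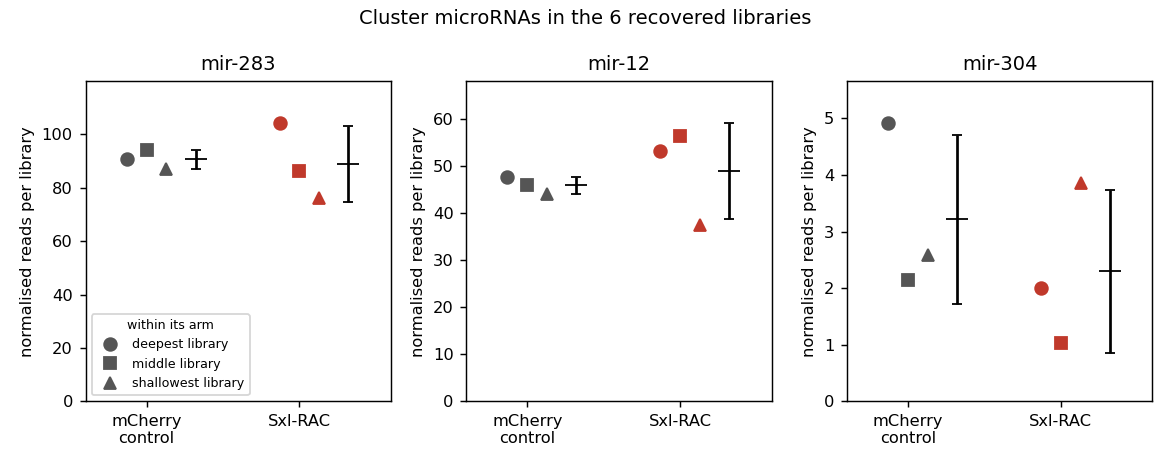
Normalised reads (reads divided by size factor) of mir-283, mir-12 and mir-304 in each recovered library, 3 control (grey) and 3 Sxl-RAC (red), with the shape giving the depth rank within the arm and the bar the mean and SD. The arms overlap for all 3 genes, as for most of the 14 autosomal microRNAs around mir-12 (3 of 14 had arms apart), the control values of mir-283 and mir-12 are tightly grouped, and the shallowest Sxl-RAC library is lowest for both, at 76.0 and 37.4.

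The order of the levels was the same in every library. Per 100 bases of hairpin the base mean in the authors' deposited table was 89.7 for mir-283, 64.1 for mir-12 and 3.13 for mir-304. On this per-length scale mir-283 exceeded mir-12 in 6 of 6 libraries, by 1.13-fold to 1.51-fold, and mir-12 exceeded mir-304 in 6 of 6, by 11.5-fold to 65.4-fold. The annotated mature products are of similar length in each hairpin, so dividing by hairpin length may not be a proper correction. Without it, mir-283 had 1.53 to 2.05 reads per mir-12 read. By base mean the genes ranked 54 (mir-283), 58 (mir-12) and 96 (mir-304) among the 168 microRNAs with reads. In the same order they held 0.0201%, 0.0106% and 0.000617% of the summed base mean of all microRNAs.

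Ratios within a library do not depend on how the libraries were scaled. For each read of mir-12 there were 1.91, 2.05 and 1.97 reads of mir-283 in the control libraries from deepest to shallowest. In the Sxl-RAC libraries there were 1.962, 1.527 and 2.034. All but the middle Sxl-RAC library thus fell between 1.91 and 2.05. The share of mir-12 among the reads of both genes was 39.6% in that library, with a 95% exact binomial interval from 31.4% to 48.2%, while the other libraries ranged from 32.8% to 34.4%, inside that interval. The ratio averaged 1.98 ± 0.0693 in control and 1.84 ± 0.274 in Sxl-RAC (SD, n = 3 each; exact two-sided permutation p = 0.6).

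The share of mir-304 among all cluster reads was 3.44%, 1.504% and 1.94% in the control libraries from deepest to shallowest. In the Sxl-RAC libraries it was 1.26%, 0.714% and 3.30%. The exact binomial 95% intervals overlap among all libraries: the highest share has an interval from 1.58% to 6.42% and the lowest from 0.0181% to 3.92%. Reads of mir-304 per 1000 reads of mir-12 and mir-283 did not separate the arms (exact two-sided permutation p = 0.4, n = 3 each).

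**Figure D3:**
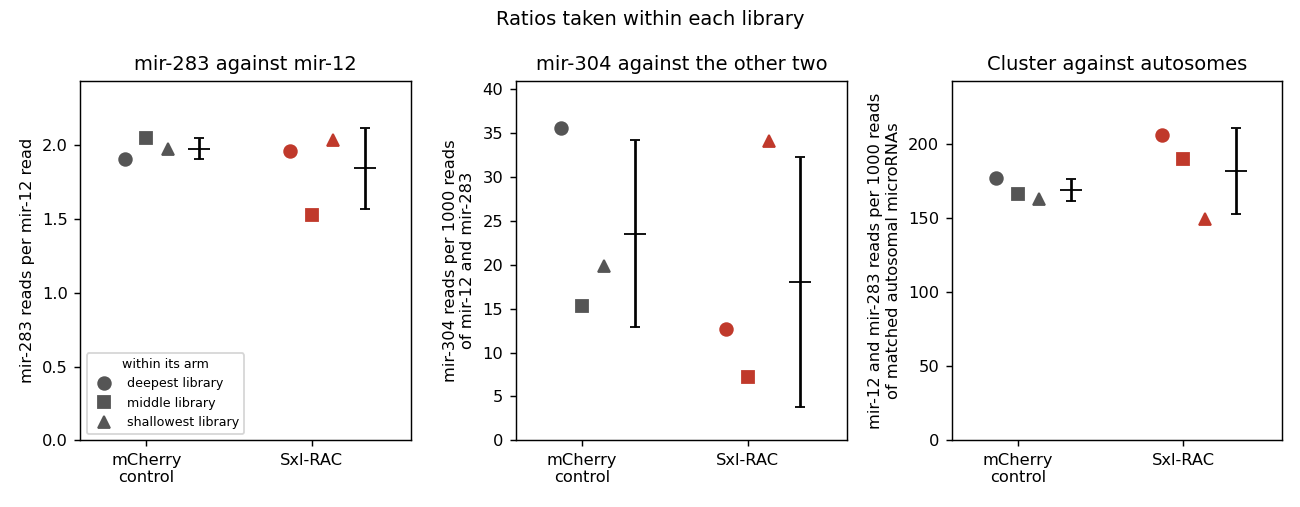
Reads of mir-283 per read of mir-12, reads of mir-304 per 1000 reads of mir-12 and mir-283, and reads of mir-12 and mir-283 per 1000 reads of 14 autosomal microRNAs of similar base mean, in each recovered library, with symbols as above for arm and depth rank and bars for the mean and SD. The ratio of mir-283 to mir-12 lies between 1.91 and 2.05 in 5 of the 6 libraries, and in all 3 panels the arms overlap.

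Autosomal microRNAs with a base mean within 2-fold of that of a member gave the setting for these values. Around mir-12 there were 14 of them, with base means from 26.7 to 94.2, and their reads could be recovered as well. In the authors' deposited table their log2 fold changes had a median of -0.08 and ran from -0.52 to 0.19, and 0 were called (0 had an unadjusted p under 0.05 in the DESeq2 test). The neighbours in level were mir-13a, at 0.18 ± 0.30 (standard error), and mir-281-1, at 0.12 ± 0.33. The extremes were mir-92b, at -0.52 ± 0.36, and mir-2a-1, at 0.19 ± 0.24. The value of mir-12 was within this range, above 9 of the 14. Copies such as mir-2a-1 and mir-281-1 have near-identical partners in the same clusters, and how reads were divided between them is not known. The partner mir-281-2 is itself among the 14.

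Around mir-283 there were 13 autosomal microRNAs, with base means from 51.6 to 135, of which 2 were called in the authors' deposited table. These were mir-986, at -6.20 ± 0.59 on the log2 scale (standard error, DESeq2 adjusted p = 1.27e-23), and mir-193, at 0.92 ± 0.21 (DESeq2 adjusted p = 0.000109). The median of the 13 was 0.09. All 13 had a larger absolute log2 fold change than mir-283. Standard errors were 0.24 for mir-283 and from 0.21 to 0.59 for the 13, so the order among the small values is uncertain. Its neighbours in level were mir-279, which restricts the making of certain olfactory neurons, at -0.25 ± 0.24 (standard error), and mir-2a-1.

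Around mir-304 there were 13, with base means from 1.38 to 3.98, none with an adjusted p and 0 with an unadjusted p under 0.05. Their deposited log2 fold changes had a median of 0.25 and ran from -1.88 (mir-6-2, standard error 1.39) to 1.73 (mir-4975, standard error 1.92). The value of mir-304 was above 2 of the 13, and its nearest neighbours were mir-954 at -0.31 (standard error 1.18) and mir-6-3 at -0.31 (standard error 1.37). By their names mir-6-2 and mir-6-3 are copies, and how reads were divided between such copies is not known.

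**Figure D4:**
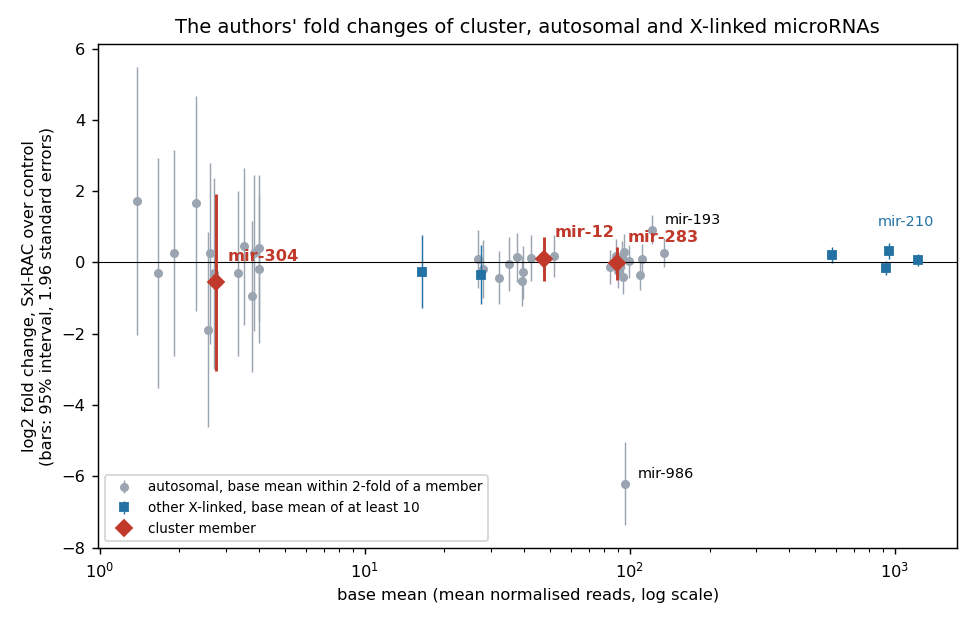
Log2 fold change of Sxl-RAC over control in the authors' deposited table against base mean (log axis) for the 3 cluster genes (red), the 34 autosomal microRNAs within 2-fold of a member's base mean (grey) and the 6 other X-linked microRNAs with a base mean of at least 10 (blue), with bars for the 95% interval from the authors' standard error. The intervals of the 3 cluster genes include 0, while mir-986 (-6.20), mir-193 (0.92) and mir-210 (0.32) were called.

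Set against the reads of the 14 autosomal microRNAs around mir-12, the cluster took shares that overlapped between the arms. Per 1000 autosomal reads, mir-12 and mir-283 together had 177, 166 and 163 reads in the control libraries from deepest to shallowest. In the Sxl-RAC libraries they had 206, 190 and 149. The arms overlapped, since the shallowest Sxl-RAC library was again the lowest. The means were 169 ± 7.36 and 182 ± 29.2 (SD, n = 3 each; exact two-sided permutation p = 0.6). Taken singly, mir-12 had 56.8 ± 3.57 and 64.6 ± 13.6 reads per 1000 (exact two-sided permutation p = 0.4, n = 3 each) and mir-283 had 112 ± 4.02 and 117 ± 18.3 (p = 0.8, same exact test). On this scale the log2 ratios of arm means were 0.19 for mir-12 and 0.06 for mir-283. After division by size factors they were 0.09 and -0.03. Part of the higher shares in Sxl-RAC thus lies in the autosomal reads, whose genes had a median log2 fold change of -0.08. The spread between libraries within an arm, pooled over arms on the log2 scale, was 0.23 for mir-12 and 0.17 for mir-283. For the 14 autosomal genes it ran from 0.11 to 0.48 with a median of 0.21. The arms stood apart for 3 of these 14 genes (21.4%), each lower in Sxl-RAC. They overlapped for the rest, as they did for the 3 cluster genes.

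The size of the authors' standard errors limits what these values can show. With the authors' standard errors, the estimate had to reach a log2 fold change of 0.58 for mir-283 and 0.78 for mir-12. Below these limits it would not be called at the largest p of any called microRNA (0.0132, DESeq2 Wald test). Of the 18 called microRNAs, 16 had a smaller change than either limit, and the median absolute log2 fold change of the 18 was 0.35. An estimate for mir-12 or mir-283 of the size that most called microRNAs showed would therefore not have been called with these standard errors.

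On chromosome X, 6 other microRNAs had a base mean of at least 10. In the authors' deposited table mir-210, a microRNA of photoreceptors, was called at a log2 fold change of 0.32 ± 0.11 (standard error, DESeq2 adjusted p = 0.0173). The remaining 5 were not called: mir-13b-2 was at 0.21, mir-981 at 0.07, mir-927 at -0.16, mir-970 at -0.26 and mir-2535b at -0.35. Standard errors of these 5 ran from 0.09 to 0.52, and mir-13b-2 has a near-identical copy on chromosome 3R. The median of the 6 was -0.05, and both mir-12 and mir-283 fell within their range.

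Whether clustered hairpins moved alike was described over all microRNA clusters, taken as genes on 1 strand with gaps of at most 10 kb and at least 2 members with a base mean of 10 or more. In this cluster mir-283 and mir-12 differed by 0.12 on the log2 scale, where their single values in the authors' deposited table have standard errors of 0.24 and 0.32. The limit left out mir-304, with a base mean of 2.76. Its log2 fold change of -0.56 ± 1.27 (standard error) would widen the range. Other clusters had 2 or 3 genes counted, and a range tends to grow with the number of genes. The 9 other clusters had ranges from 0.02 to 0.39 with a median of 0.20, and 2 of them, mir-998 with mir-11 and the let-7 cluster, had a smaller range. The differing signs of mir-283 and mir-12 were found in 3 of the 9 as well.

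As a check of the tissue, the neuronal microRNA mir-124 had a base mean of 12.9 in the authors' deposited table and the muscle microRNAs mir-1 and mir-133 had 4750 and 6835. Of 14 microRNAs of testis clusters 10 were at 0 and the others were at most 0.521, while mir-318 of the ovary was at 0.393. Deposited log2 fold changes were -0.46 for mir-1 and 0.23 for mir-133, both called. Their part in the values of the cluster was not tested.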

How the data were processed

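Per the submitters' processing notes, the tools were Trim Galore 0.6.7, Bowtie2 2.5.3, featureCounts 2.0.8 and DESeq2 2.11.40.8. The genome build, annotation and strand setting are not given in the sources used here. The table deposited by the authors compares Sxl-RAC with the attP2 control and has no column per sample. The base mean in the authors' deposited table is a signal: read counts divided by size factors and averaged over all libraries, per the file headers. The authors' deposited effect and standard error are log2 values, the Wald statistic a score, and the p-value and adjusted p-value come from the Wald test. Direction was taken from the file's name. For all 67 microRNAs with an adjusted p, Benjamini-Hochberg adjustment over microRNAs alone returned the deposited value within 1%.

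Of 3546 rows, 3545 matched Ensembl release 115 (build BDGP6.54), the source of names and coordinates. Whole reads were recovered with numpy 2.4.6 and scipy 1.17.1 by searching all whole-read combinations with arm means within 0.35 of those the fold change gives, keeping those that gave the base mean to its last printed digit and the log2 fold change to within 2e-06 (2e-05 under a base mean of 20), with the dispersion solved so that the standard error was met to within 1e-06. The 18 rows tried each had 1 solution. By base mean alone there were 1 combination for mir-304, 2314 for mir-12 and 92799 for mir-283. In simulated data the true reads were always found, and at the level of mir-283 they were the only solution in 7 of 8 runs. The simulated fold changes and standard errors came from the same formulas as the search, within its tolerances. The simulation therefore cannot show whether the authors' fit follows these formulas. Recovery, and leaving out single libraries, were added after the data were seen. Members and lists were chosen with earlier results of these data known. Genes named are the members, the nearest, highest, lowest and called autosomal microRNAs of each window, and X-linked microRNAs with a base mean of at least 10. Mature sequences and seeds were not analysed here.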

Additional observations from a re-analysis of the deposited data

How the results depend on the processing

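Of mir-12 and mir-283, 0 were called with adjustment over all rows of the table that have an adjusted p or over all microRNA rows with a p-value. The same held after re-centring on the median of autosomal or of all microRNAs, or with a threshold of 0.1. Adjusted Wald test p ranged over these from 0.817 to 0.974 for mir-12 and from 0.898 to 0.974 for mir-283. The authors' DESeq2 adjusted p was 0.817 for mir-12 and 0.92 for mir-283, and the other values were recomputed here. For mir-304 adjustment over all microRNA rows gave its single adjusted p, 0.974, and the other settings give none. Re-centring, the one of these settings that moves a fold change, subtracted 0.02 in both cases and turned no direction. The median log2 fold change of autosomal microRNAs of similar base mean, 0.06 within 2-fold, was 0.03 within 1.5-fold and 0.09 within 3-fold. The median of the other X-linked microRNAs, -0.05 for 6 with a base mean of at least 10, was -0.29 for 13 with at least 1, -0.26 for all 33 with reads and 0.14 for 4 with at least 100; the cause was not tested, and most rows under 10 rest on a few reads. The median range within other clusters, 0.20, was 0.17 with gaps of at most 3 kb and 0.18 with base means of at least 100, where mir-12 and mir-283 no longer count. Leaving out each library in turn, the log2 ratio of arm means ran from -0.02 to 0.26 for mir-12, from -0.16 to 0.07 for mir-283, from -1.09 to -0.04 for mir-304, from -0.18 to 0.02 for mir-283 per mir-12 read, and from 0.01 to 0.23 for mir-12 and mir-283 against autosomal reads. No paired analysis was possible because the recovered libraries carry no replicate numbers.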
